A study of Rattus norvegicus with 64 samples.

Results

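The small leucine-rich proteoglycans are secreted proteins of connective tissue whose core is a curved stack of leucine-rich repeats, and 8 of them were followed here in the rat bladder wall after reconstruction: Dcn (decorin), Bgn (biglycan), Aspn (asporin), Lum (lumican), Fmod (fibromodulin), Prelp, Omd (osteomodulin) and Ogn (osteoglycin). The members were taken by gene symbol: array probes whose RefSeq accession is paired with one of the 8 symbols. All 8 had a probe, 9 probes in all, out of 15715 named genes and 30367 probes on the array. Total RNA of the reconstructed wall was hybridized to 64 1-color Agilent arrays, 8 for each of 8 groups. In 4 groups part of the bladder had been removed by hemicystectomy and replaced with bladder acellular matrix (BAM), a rat bladder wall freed of its cells, and the reconstructed wall was taken after 7, 30, 90 or 180 days (BAM bladders). The other 4 groups had the same operation and the same days with BAM on which adipose-derived stem cells (ADSCs in the labels, ASCs here) had been cultured (BAM+ASC bladders). All rats were syngeneic male Wistar animals, the ASCs came from 10-week-old male Wistar donors and were used at the third passage, and the age of the operated rats is not given in the labels. The labels do not mark whether a transcript came from the host or from the grafted cells, and an unoperated group was not analysed here. A level is the log2 processed signal of a probe after subtraction of the array's own log2 75th percentile, so that 0 is the level of that percentile. Levels are compared between groups within a probe and never between probes. In bulk tissue, fewer cells of a type and less RNA per cell cannot be told apart.

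Small leucine-rich proteoglycans bind collagen fibrils and set how the fibrils grow in width and how they are spaced. Several of them also hold growth factors of the TGF-β family in the matrix, and biglycan and decorin act on Toll-like receptors when they are set free from it. Dcn, Bgn and Aspn form class I of the family, Lum, Fmod, Prelp and Omd belong to class II, and Ogn to class III. In the bladder wall they are made mostly by fibroblasts and smooth muscle cells of the lamina propria and the detrusor, the muscle layer that a graft has to rebuild.

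Members of the family lie side by side in the rat genome. In the RefSeq order of protein-coding genes, Ogn, Omd and Aspn followed each other on chromosome 17, Dcn and Lum were neighbors on chromosome 7 and Prelp and Fmod on chromosome 13, with 0 genes between neighbors, while Bgn lies on X. The 250 bases upstream of the start are shown for the chromosome 17 cluster, whose members had their highest levels late, and for Lum, whose level was lowest late, and Fmod, which had the largest difference between grafts. RefSeq sequences of build GRCr8 were used, with 5 of the 8 members in the table, and each is written 5′ to 3′ on the strand of its gene. Capitals mark the motifs that were found. A TATA box was read as TATAAA and a MCAT element as GGAATG. For the CCAAT box the letters are its name, and a GC box was read as GGGCGG. The search covered both strands and also an AP-1 site, read as TGA and TCA around any 1 base, and a CArG box.
Ogn, chr17:15258996-15259245, minus strand: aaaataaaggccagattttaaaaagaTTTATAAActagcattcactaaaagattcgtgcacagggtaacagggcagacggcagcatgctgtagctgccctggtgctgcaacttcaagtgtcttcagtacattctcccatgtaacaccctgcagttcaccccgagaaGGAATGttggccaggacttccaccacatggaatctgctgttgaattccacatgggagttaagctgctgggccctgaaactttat
Omd, chr17:15274871-15275120, minus strand: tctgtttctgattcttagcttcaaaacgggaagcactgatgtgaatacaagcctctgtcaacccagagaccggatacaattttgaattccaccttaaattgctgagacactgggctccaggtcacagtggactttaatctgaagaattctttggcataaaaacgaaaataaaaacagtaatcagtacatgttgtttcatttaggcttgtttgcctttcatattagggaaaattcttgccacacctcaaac
Aspn, chr17:15310470-15310719, minus strand: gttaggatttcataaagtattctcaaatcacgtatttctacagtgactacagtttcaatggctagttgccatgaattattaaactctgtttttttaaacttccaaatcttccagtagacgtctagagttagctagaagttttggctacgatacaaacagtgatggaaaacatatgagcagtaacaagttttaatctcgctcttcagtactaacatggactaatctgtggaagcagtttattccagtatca
Lum, chr7:34245456-34245705, plus strand: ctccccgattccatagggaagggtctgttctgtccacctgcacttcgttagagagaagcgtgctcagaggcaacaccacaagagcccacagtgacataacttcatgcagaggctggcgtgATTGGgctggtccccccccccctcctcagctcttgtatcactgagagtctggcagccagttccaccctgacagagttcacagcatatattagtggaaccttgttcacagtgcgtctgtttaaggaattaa
Fmod, chr13:48045317-48045566, plus strand: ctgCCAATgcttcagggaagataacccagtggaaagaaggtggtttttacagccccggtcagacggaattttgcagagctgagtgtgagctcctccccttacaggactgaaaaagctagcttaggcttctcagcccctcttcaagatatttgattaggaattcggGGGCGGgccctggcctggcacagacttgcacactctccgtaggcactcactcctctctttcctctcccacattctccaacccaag
The TATA box letters in Ogn began 222 bases before the start and overlapped their own reverse match at 224, and GGAATG began at 84. TATAAA was found in 13.1% and GGAATG in 11.8% of 27457 rat promoters of this length. In Lum a CCAAT box was found at 130 bases on the reverse strand, and in Fmod one at 247 and a GC box at 85, motifs held by 34.3% and 32.4% of the promoters. The upstream bases of Omd and Aspn held none of the letters searched, and an AP-1 site (6.36% of all promoters) or a CArG box (1.5%) was found in none of the 5. These matches describe letters only.

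The arrays were of unequal background. The share of gene spots flagged well above it ranged over 73.28% to 95.58% on the early arrays (7 and 30 days) and over 35.54% to 64.59% on the late ones. A slide carried the 8 arrays of a single group, and differences between slides and between groups cannot be told apart. Early slides were scanned on one day and late slides on another, so the step from 30 to 90 days and the change of scan day cannot be told apart either. The labelled tissue was checked against markers: urothelial and smooth muscle markers had a mean level above the 75th percentile in each group, up to 3.58 and 4.09 in BAM+ASC bladders at 90 days.

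Of the member probes, 2 were bright enough to saturate the scanner, and this decides how their values can be read. Bgn had 2 probes. The brighter one, which the rule of 1 probe per gene takes, was saturated on 59 of 64 arrays, and the dimmer one on 0, so the dimmer probe is used below for the level of Bgn. Dcn was saturated on 7 of 8 arrays of BAM bladders at 90 days and on 5 of 8 at 180 days, counting arrays on which at least 0.5 of its 10 spots were. By that count 0 arrays of the other 6 groups were saturated, but single spots were on 1 BAM array at 7 days, 2 BAM+ASC arrays at 90 days and 1 at 180 days, on at most 3 spots of an array. The median processed signal of Dcn at 90 days was 63893 in BAM and 50552 in BAM+ASC bladders, while the 75th percentile it is scaled by had a median of 2668 and 1154 and the local background one of 342.8 and 107.5. On the scaled values the order is the other one, and the only BAM array at 90 days that was not saturated, replicate 8, had the highest scaled level of its group, 5.30. Its 75th percentile, 959.4, was the lowest of the group. Its share of spots well above background, 35.54%, was the lowest of the 64 arrays. Comparisons of Dcn with these groups, and all comparisons of the brighter Bgn probe, therefore rest on capped values, and their differences are not measured sizes.

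**Figure D1:**
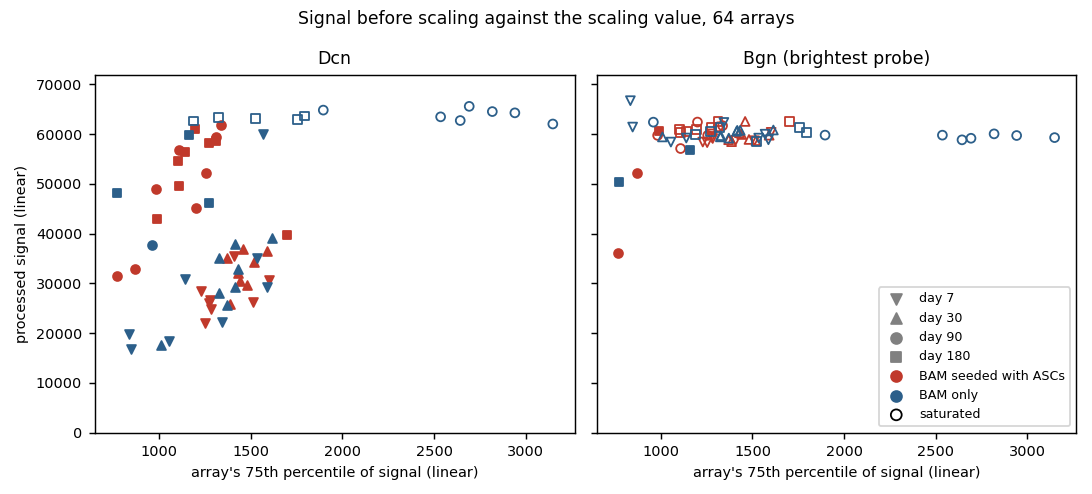
Processed signal (linear scale, y axis) of Dcn and of the brighter Bgn probe against the 75th percentile of the array (linear scale, x axis), 1 point per array, open where the probe was saturated. Dcn reached the ceiling on 7 of 8 BAM arrays at 90 days, whose 75th percentile went up to 3148, and the brighter Bgn probe lay at the ceiling on 59 of 64 arrays.

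A limma model of the 8 group means was fitted to the 64 arrays, p-values were adjusted with Benjamini-Hochberg over the 30367 probes of a comparison, and a probe was called at an adjusted p below 0.01 with a fold change above 1.5. Few members differed between grafts. At 7 days 2 of 8 members were lower in BAM+ASC than in BAM bladders and 0 higher, where 5.6% of all probes were called lower and 2.11% higher. These were Fmod and Prelp, and the median difference was -0.17 over the members and -0.16 over all probes. At 30 days 0 of 8 were called (background 1.67%, medians -0.04 and 0.11), although the limma p before adjustment was below 0.05 for Fmod. At 90 days 2 of 8 were called higher (background 3.87% higher), Dcn and the brighter probe of Bgn, and both calls involve the capped values described above. With the dimmer probe Bgn differed by 0.14 (limma adjusted p = 0.399). The medians at 90 days were 0.01 over the members and -0.27 over all probes. At 180 days 0 of 8 were called (background 2.42%, medians -0.03 and 0.06), and before adjustment Lum alone had a limma p below 0.05.

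**Figure D2:**
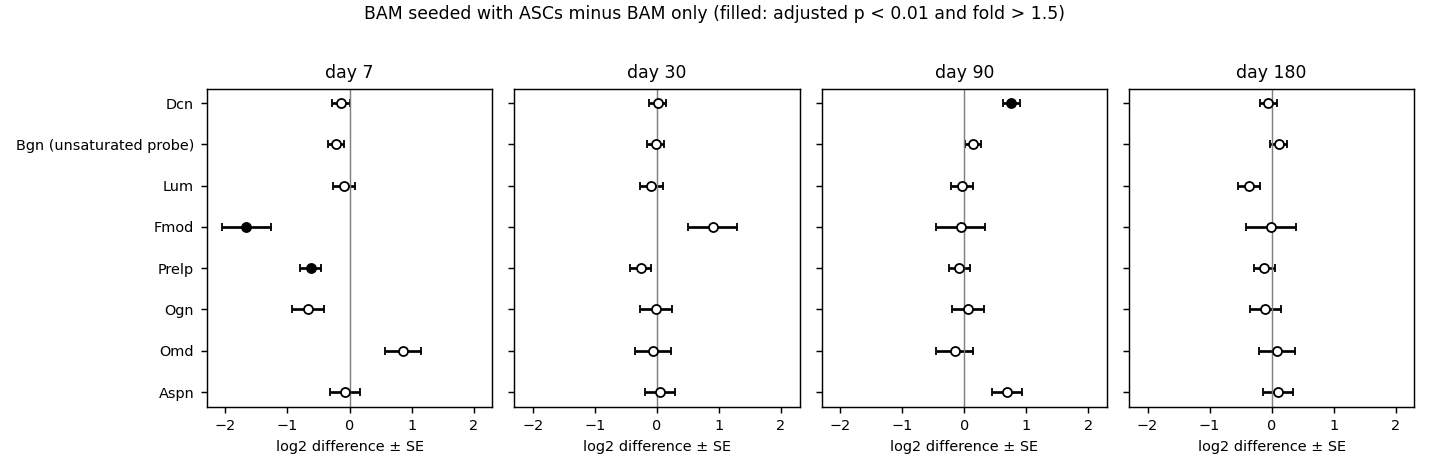
Difference of BAM+ASC minus BAM bladders (log2 scale, x axis, with the standard error of the limma fit, 8 against 8 arrays) for the 8 members at 4 days, filled where called, with the dimmer probe for Bgn. Fmod and Prelp are filled on the lower side at 7 days, and Dcn on the higher side at 90 days, where 7 of 8 BAM arrays were saturated.

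More member values were called between consecutive days, 17 of 48, than between grafts, 4 of 32. Slide changed with every group and scan day from 30 to 90 days, and neither can be told apart from the day. In BAM bladders 1 member was higher and 2 were lower at 30 than at 7 days (background 4.44% and 4.19%), 3 were higher and 1 lower at 90 than at 30 days (35.2% and 9.49%), and 2 were higher at 180 than at 90 days (5.2%). The share of members called higher from 30 to 90 days in BAM bladders was thus near that of all probes, with capped Dcn and Bgn among the 8. Without members saturated on an array compared, 3 of 6 were higher in BAM and 5 of 7 in BAM+ASC bladders, and 0 were lower. In BAM+ASC bladders 2 were higher and 1 lower at 30 than at 7 days (6.65% and 1.39%), 5 were higher and 0 lower at 90 than at 30 days (17.8% and 10.3%), and 0 were called between 90 and 180 days (background 4.13%), with Prelp and, of the 2 Bgn probes, the dimmer one at an unadjusted limma p below 0.05. Consecutive steps share the arrays of the day between them. The 2 calls between 90 and 180 days in BAM bladders were the capped Dcn and Bgn, and the member called lower from 30 to 90 days was the capped Bgn, whose dimmer probe differed by 0.04 (limma adjusted p = 0.828). The scaling left a median shift over all probes of 0.30 from 30 to 90 days in BAM and of 0.11 in BAM+ASC bladders, and of 0.27 from 7 to 30 days in BAM+ASC bladders. The median over the members and that over all probes were -0.10 and -0.06 in BAM and 0.21 and 0.27 in BAM+ASC bladders from 7 to 30 days. From 30 to 90 days they were 0.60 and 0.30 in BAM and 1.02 and 0.11 in BAM+ASC bladders. Without members saturated on an array compared, the member medians of this step were 1.01 (6 members) in BAM and 1.06 (7 members) in BAM+ASC bladders.

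**Figure D3:**
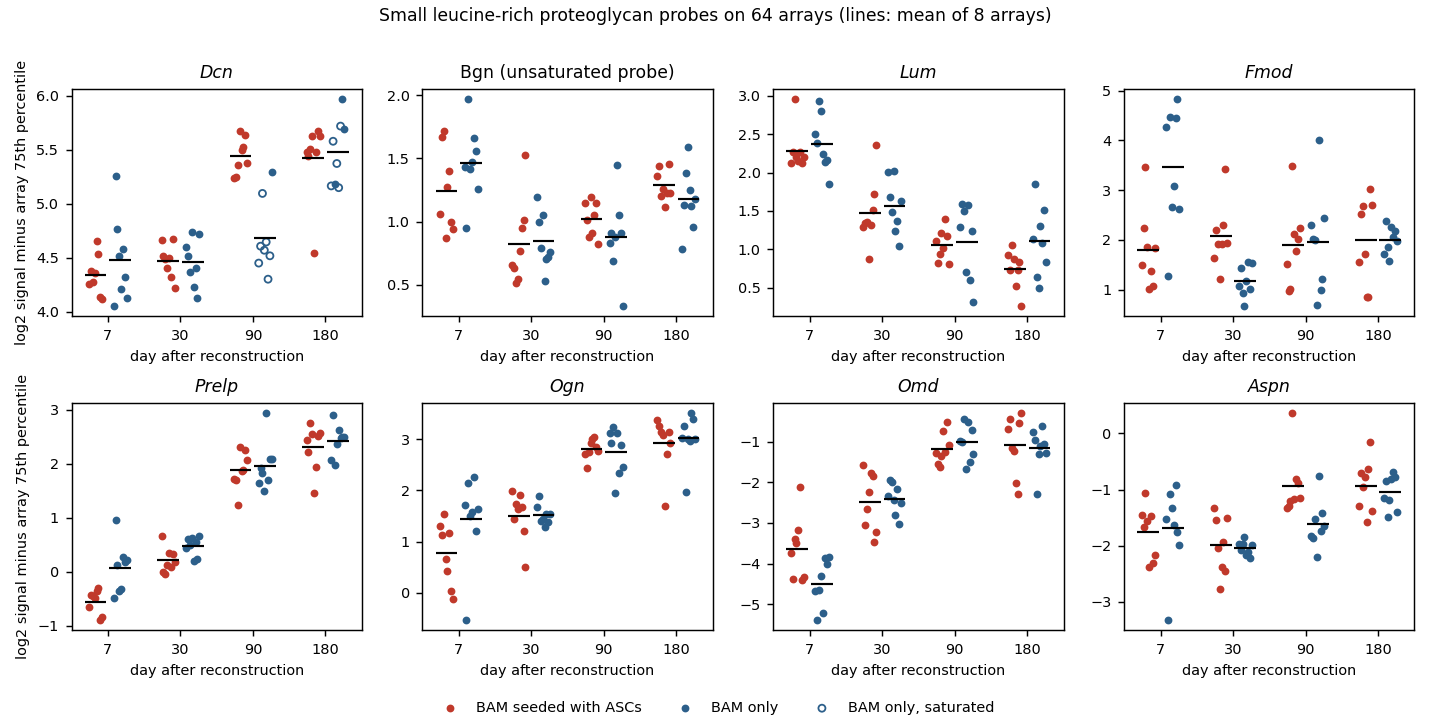
Level of each member (log2 scale, relative to the 75th percentile, y axis) on the 64 arrays by day (x axis) and graft, with a line at the mean of each 8 arrays and open circles for saturated arrays. Prelp, Ogn and Omd lie higher at 90 and 180 days than at 7 and 30 days with both grafts, Lum lies lower, and Fmod is spread widely.

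Fmod was the member with the largest difference between grafts. Fibromodulin binds collagen I next to lumican and takes part in the cross-linking and widening of fibrils. At 7 days its level ran from 1.27 over a median of 3.68 to 4.82 in BAM bladders and from 1.02 over 1.66 to 3.46 in BAM+ASC bladders. The groups overlapped, with 2 of 8 BAM+ASC arrays below every BAM array. The means were 3.46 ± 1.24 (SD, n = 8) and 1.79 ± 0.79 (n = 8), a log2 difference of -1.66 (standard error 0.398, limma adjusted p = 0.00178) or 3.17-fold lower with ASCs. A fit of these 16 arrays alone kept the value and raised the limma adjusted p to 0.0273.

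The later course of Fmod differed between grafts. From 7 to 30 days it fell by 2.28 on the log2 scale in BAM bladders (standard error 0.398, limma adjusted p = 1.35e-05), to 1.18 ± 0.31, with 5 of 8 arrays below every array of 7 days. With ASCs the difference over the same days was 0.28 (limma adjusted p = 0.609), with a mean of 2.07 ± 0.64 at 30 days. At 30 days 7 of 8 BAM+ASC arrays lay above every BAM array (difference 0.90, limma adjusted p = 0.143). The difference between grafts changed by 2.56 between these days (standard error 0.563, limma adjusted p = 0.00553), a test in which 0.886% of all probes were called higher and Fmod was the only member called. That call was lost when any 1 of 7 arrays was left out (BAM+ASC 7 days replicates 5, 7 and 8, BAM 7 days replicates 3, 6 and 7, BAM 30 days replicate 4), with limma adjusted p up to 0.0154. At 90 and 180 days the means lay between 1.90 and 2.00 in all 4 groups, and the grafts differed by -0.06 and -0.01 (limma adjusted p = 0.915 and 1.00). The spread within groups was wide, with a pooled SD of 0.808 against 0.262 to 0.591 for the other members.

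Markers of the urothelium moved with the graft at 7 days, beside the difference in Fmod and Prelp. Over all probes 2.11% were called higher and 5.6% lower with ASCs at that day. Of 12 urothelial markers 9 were called higher and 0 lower in BAM+ASC bladders, Upk1a, a plaque protein of umbrella cells, by 2.36 and Epcam by 2.60. The mean level of the list ran from 1.33 to 2.88 in BAM+ASC and from -2.32 to 2.27 in BAM bladders, and of the 12 markers 0 were below background on all arrays of either group. The part of this in the member differences was not tested. The 9 smooth muscle markers had a median difference of 0.49, and of 12 fibroblast markers 1 was higher (Tcf21, by 1.23) and 4 were lower, among them Mfap5 by -0.77.

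Prelp, a basic protein that anchors basement membranes to the connective tissue beneath them, was the member whose groups stood farthest apart against their spread. At 7 days it ran from -0.89 over -0.47 to -0.31 in BAM+ASC and from -0.49 over 0.15 to 0.96 in BAM bladders, with 3 of 8 BAM+ASC arrays below every BAM array. The means were -0.56 ± 0.22 and 0.07 ± 0.47, a difference of -0.63 (standard error 0.171, limma adjusted p = 0.00639, 1.54-fold). This call is the weakest of the set. It was lost when any 1 of 8 arrays was left out (BAM+ASC replicates 1, 7 and 8, BAM replicates 2, 3, 6, 7 and 8, limma adjusted p from 0.0111 to 0.0277), after normexp correction (0.0165), after quantile normalization (0.0143), with the percentile over detected probes (difference -0.54) and in the separate fit (0.0237).

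With follow-up Prelp rose in both grafts. In BAM+ASC bladders all 8 arrays of 30 days (-0.04 to 0.66) lay above all 8 of 7 days, a difference of 0.76 (limma adjusted p = 7.37e-04), and the mean reached 1.88 ± 0.35 at 90 and 2.31 ± 0.42 at 180 days. In BAM bladders the mean was 0.47 ± 0.18 at 30, 1.96 ± 0.44 at 90 and 2.43 ± 0.29 at 180 days. The step from 30 to 90 days was 1.49 in BAM (standard error 0.171, limma adjusted p = 8.49e-11) and 1.67 in BAM+ASC bladders (adjusted p = 1.24e-11 in the same limma fit), without overlap of the arrays in either graft. Above the all-probe median these steps were 1.19 and 1.56. From 90 to 180 days the differences of 0.47 and 0.43 were not called (limma adjusted p = 0.0401 and 0.0949), nor was the graft difference at 30, 90 or 180 days, which lay between -0.26 and -0.08. Group membership took 92.1% of the variance of Prelp over the 64 arrays, the highest share of the members, against a median of 54.4% over all probes.

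Ogn and Omd, neighbors on chromosome 17, both rose from 30 to 90 days with both grafts. Osteoglycin is a keratan sulfate proteoglycan that takes part in collagen fibril formation, and osteomodulin, first found in bone, binds collagen and cells. Ogn at 7 days ran from -0.13 over 0.89 to 1.55 in BAM+ASC and from -0.53 over 1.61 to 2.26 in BAM bladders, and the difference of -0.67 was not called (limma adjusted p = 0.0599). Without BAM replicate 2, the lowest of its group, it was -0.95 and called (limma adjusted p = 0.00156). At 30 days the means were 1.51 ± 0.48 and 1.52 ± 0.19. From there Ogn rose to 2.81 ± 0.19 in BAM+ASC (step 1.30, standard error 0.257, limma adjusted p = 3.15e-05) and 2.76 ± 0.46 in BAM bladders at 90 days (step 1.24, limma adjusted p = 3.35e-05), with no overlap between the days in either graft. At 180 days the means of 2.92 ± 0.53 and 3.02 ± 0.47 did not differ from those of 90 days past the threshold.

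Omd had the widest range of group means of all members, 3.48 on the log2 scale. At 7 days it ran from -4.42 over -3.61 to -2.12 in BAM+ASC and from -5.39 over -4.48 to -3.83 in BAM bladders. These were its lowest groups, with the probe flagged well above background on 8 of 8 arrays in each. With ASCs 5 of 8 arrays lay above every BAM array, the opposite side from Fmod, Prelp and Ogn, and the difference of 0.86 missed the threshold (standard error 0.292, limma adjusted p = 0.0315). After quantile normalization it was 1.08 and called (limma adjusted p = 0.00563). From 7 to 30 days Omd rose by 2.09 in BAM bladders (limma adjusted p = 1.52e-07), to -2.40 ± 0.38, all 8 arrays above all 8 of 7 days. With ASCs it rose by 1.16 (limma adjusted p = 0.00259), to -2.47 ± 0.73, with 3 of 8 arrays above every array of 7 days. The call with ASCs was lost without BAM+ASC 30 days replicate 1 (1.03, limma adjusted p = 0.0107), after normexp correction (0.79, limma adjusted p = 0.0126), after quantile normalization (0.96, limma adjusted p = 0.0105) and in the separate fit (limma adjusted p = 0.0296). The difference between the steps of the grafts, -0.93, was not called (limma adjusted p = 0.140).

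From 30 to 90 days Omd rose by 1.39 in BAM (limma adjusted p = 4.13e-05, no overlap) and by 1.30 in BAM+ASC bladders (limma adjusted p = 2.14e-04, 7 of 8 arrays above every array of 30 days). It reached -1.01 ± 0.45 and -1.17 ± 0.38 at 90 and -1.16 ± 0.51 and -1.08 ± 0.74 at 180 days. On 1 BAM array of 90 days its probe was not well above background. Above the all-probe median the step from 30 to 90 days was 1.09 in BAM and 1.19 in BAM+ASC bladders for Omd, and 0.94 in BAM bladders for Ogn.

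Aspn, the third gene of the cluster, moved less. Asporin carries a run of aspartic acid residues and binds TGF-β and collagen. In BAM+ASC bladders it rose from -1.99 ± 0.51 at 30 to -0.93 ± 0.55 at 90 days (step 1.06, standard error 0.239, limma adjusted p = 2.24e-04), with all 8 arrays above all 8 of 30 days. In BAM bladders the same step, from -2.04 ± 0.12 to -1.62 ± 0.42, was 0.42 and not called (limma adjusted p = 0.117), and the difference between the steps of the grafts was 0.63 (limma adjusted p = 0.137). At 90 days the graft difference was 0.68 (standard error 0.239, limma adjusted p = 0.0235), below the call, with BAM+ASC values from -1.32 over -1.16 to 0.36 and BAM values from -2.20 over -1.69 to -0.76. Without BAM replicate 5 it was 0.81 and called (limma adjusted p = 0.00902). Over all arrays left out in turn it ranged from 0.50 to 0.81, and no other of these fits gave a call. BAM+ASC replicate 4, at 0.36, stood apart from the others of its group (-1.32 to -0.82). On 1 BAM array of 90 days the Aspn probe was not well above background. At 180 days the means were -0.93 ± 0.47 and -1.04 ± 0.31, and at 7 days -1.76 ± 0.47 and -1.69 ± 0.75.

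Lum took the opposite course. Lumican is a keratan sulfate proteoglycan that keeps fibrils thin and evenly spaced, and it competes with fibromodulin for sites on collagen. At 7 days it ran from 2.12 over 2.21 to 2.95 in BAM+ASC and from 1.85 over 2.32 to 2.93 in BAM bladders, and the grafts differed by -0.09 (limma adjusted p = 0.782). It fell by 0.82 on the log2 scale from 7 to 30 days in both grafts (standard error 0.182, limma adjusted p = 5.53e-04 in BAM and 6.96e-04 in BAM+ASC bladders), to 1.56 ± 0.35 and 1.47 ± 0.43. In BAM bladders 6 of 8 and in BAM+ASC bladders 7 of 8 arrays of 30 days lay below every array of 7 days. Later differences were not called: from 30 to 90 days -0.46 in BAM (limma adjusted p = 0.0240) and -0.41 in BAM+ASC bladders (limma adjusted p = 0.0542), and at 180 days the means were 1.11 ± 0.45 and 0.74 ± 0.25, a graft difference of -0.37 (limma adjusted p = 0.349). Among the 8 members Lum was the one whose mean was highest at 7 days and lowest at 180 days in BAM+ASC bladders.

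Dcn, the most abundant of these proteoglycans in many connective tissues and a ligand of TGF-β and of several receptor kinases, was below the saturation count in 6 of the 8 groups, with its highest signal in BAM+ASC bladders, 61793 at 90 days, close to the median of 63893 of the mostly saturated BAM arrays of that day. In BAM+ASC bladders its level was 4.34 ± 0.18 at 7, 4.47 ± 0.16 at 30, 5.45 ± 0.17 at 90 and 5.43 ± 0.36 at 180 days. The 8 arrays of 90 days (5.24 to 5.68) lay above the 8 of 30 days (4.22 to 4.68), a rise of 0.97 (standard error 0.142, limma adjusted p = 1.15e-07) or 0.86 above the all-probe median. It includes the 2 arrays of 90 days with single saturated spots. At 7 and 30 days the grafts differed by -0.14 and 0.01 (limma adjusted p = 0.562 and 0.976), and BAM bladders were at 4.48 ± 0.40 and 4.46 ± 0.22. In BAM bladders the capped means were 4.69 ± 0.34 at 90 and 5.48 ± 0.31 at 180 days. The call between grafts at 90 days (limma adjusted p = 3.24e-05) did not hold after quantile normalization, with a difference of 0.00 (limma adjusted p = 0.995), and under either scaling the BAM values are capped. Dcn and the brighter Bgn probe were also the 2 members called for a change of the graft difference, higher from 30 to 90 days and lower from 90 to 180 days (background 3.32% and 3.83%), and both tests include the capped group. With the dimmer probe these changes of Bgn were 0.16 and -0.03 (limma adjusted p = 0.537 and 0.918).

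Bgn, which stands next to decorin in structure and carries a pair of glycosaminoglycan chains, was measured below saturation by its dimmer probe. By day its means were 1.24 ± 0.33, 0.83 ± 0.34, 1.02 ± 0.14 and 1.29 ± 0.12 with ASCs and 1.47 ± 0.30, 0.85 ± 0.22, 0.88 ± 0.31 and 1.18 ± 0.25 without them. From 7 to 30 days it fell by 0.62 in BAM bladders (standard error 0.133, limma adjusted p = 3.39e-04), with 5 of 8 arrays below every array of 7 days. With ASCs the difference of -0.42 over these days was not called (limma adjusted p = 0.0166). The graft difference lay between -0.22 and 0.14 at the 4 days and was not called at any. Bgn had the smallest range of group means of the 8 genes with this probe, 0.639 on the log2 scale.

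Genes whose products work with these proteins were followed too. Of 9 other members of the family 5 had a named probe, among them Kera and Epyc, which were not well above background on any array of several groups. Chad, chondroadherin, was lower in BAM+ASC bladders at 7 days, at -4.87 against -3.48 (limma adjusted p = 2.44e-04), and Nyx at -3.62 against -2.78. Kera, the neighbor of Lum, was called higher from 30 to 90 days in both grafts with 0 and 2 of 8 arrays of 90 days well above background, so that its fold change is not a measured one. Among genes that shape the collagen fibril, 11 of 16 were lower and 0 higher from 30 to 90 days in BAM bladders. In BAM+ASC bladders 7 of 16 were lower and 0 higher. Over all probes 9.49% and 10.3% were called lower. Several of the fibril probes were saturated. Without the genes saturated on any array compared, 6 of 10 were lower in BAM and 7 of 12 in BAM+ASC bladders, with median steps of -0.79 and -0.71. Col5a3, a chain of the collagen that starts fibrils, fell by 2.15 (limma adjusted p = 2.02e-11) and 2.10 (limma adjusted p = 1.47e-10), and Plod2, a lysyl hydroxylase for cross-links, by 1.74 and 1.23. The median step over the whole list was -0.76 in BAM and -0.47 in BAM+ASC bladders, against 0.30 and 0.11 over all probes. Over the 8 proteoglycans it was 0.60 and 1.02, or 1.01 and 1.06 without those saturated on an array compared.

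From 7 to 30 days 5 of 16 fibril genes were lower in BAM and 2 of 16 in BAM+ASC bladders. Without saturated genes 4 of 10 and 2 of 11 were lower. Over all probes 4.19% and 1.39% were called lower. Col5a1 fell by 1.28 and 0.99, beside the fall of Lum. At 7 days Serpinh1, the collagen chaperone of the endoplasmic reticulum, was lower with ASCs by -0.82 (limma adjusted p = 2.61e-04). It was the only 1 of 16 fibril genes called between grafts at that day (background 5.6% lower). At 90 days 2 of 16, Col1a1 and Col1a2, were called higher with ASCs (background 3.87%), and both were saturated on 7 or 8 of 8 BAM arrays, as Dcn was. Without saturated genes 0 of 11 were called at that day.

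Enzymes that build the glycosaminoglycan chains of these proteins showed few calls. Of 24 measured, 4 were lower at 7 days with ASCs (background 5.6%). Among them was Chst14, which sulfates dermatan chains, at -3.01 against -1.76 (limma adjusted p = 3.61e-06). Chsy1, a chondroitin synthase, fell from 30 to 90 days in both grafts, by 0.98 (limma adjusted p = 2.69e-10) and 1.01 (limma adjusted p = 5.67e-10). Over that step 4 of 24 were higher and 1 lower in BAM+ASC bladders, where 17.8% of all probes were higher, and 1 was higher and 1 lower in BAM bladders, where 35.2% were. These shares were near or below those of all probes. The genes higher with ASCs included B3gnt2 and B4galt4, which lengthen keratan-type chains, by 0.77 and 0.73.

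Of 15 proteases that cut the family, 6 were lower in BAM bladders at 30 than at 7 days (background 4.19%). In BAM+ASC bladders 2 were lower (1.39%). At 90 days 6 were lower and 3 higher than at 30 days in BAM bladders (background 9.49% and 35.2%). In BAM+ASC bladders 9 were lower (10.3%). From 90 to 180 days 1 of the 15 was lower and 0 higher in BAM bladders. The share of all probes called lower in that step is not given here, so this count has no background beside it. Mmp8, the collagenase of neutrophils, was at -3.08 in BAM bladders at 7 days and was not well above background on any array at 30 days. Mmp14, a membrane-bound protease, fell by 0.68 from 7 to 30 days in BAM+ASC bladders (limma adjusted p = 9.73e-04). Mmp7 fell by 4.26 from 30 to 90 days in BAM+ASC bladders (limma adjusted p = 4.31e-06), with 2 saturated arrays at 30 days.

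Of 22 ligands and receptors, 2 were higher and 2 lower with ASCs at 7 days (background 2.11% and 5.6%). Tlr2, a receptor of free biglycan, was lower by -1.03 (limma adjusted p = 0.00158), and Bmp2 and Erbb2 were higher by 0.94 and 0.99. From 30 to 90 days 8 of 22 were lower and 4 higher in BAM bladders (background 9.49% and 35.2%). In BAM+ASC bladders 6 were lower and 2 higher (10.3% and 17.8%). Tlr2 fell by 2.00 and 1.77 and its co-receptor Cd14 by 1.80 and 1.32, with limma adjusted p from 3.44e-10 to 3.14e-05. Ccn4, a matricellular protein that binds decorin and biglycan, fell from 7 to 30 days by 1.75 in BAM (limma adjusted p = 2.73e-10) and 0.90 in BAM+ASC bladders (limma adjusted p = 3.41e-04).

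**Figure D4:**
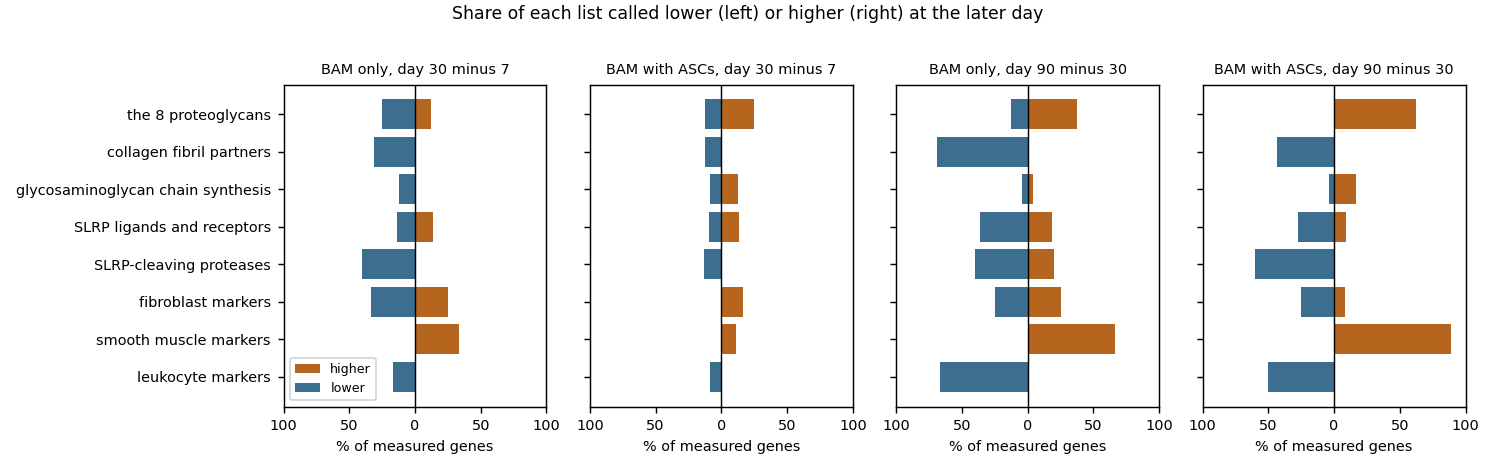
Share of the measured genes of each list (x axis, percent) called lower (left) or higher (right) at the later of 2 days, for both grafts (SLRP, small leucine-rich proteoglycan). From 30 to 90 days 5 of 8 proteoglycans are on the higher side in BAM+ASC bladders, where 17.8% of all probes were called higher. In BAM bladders 3 of 8 are, near the 35.2% of all probes, and the 1 called lower is the saturated Bgn probe. Without saturated members 3 of 6 were higher in BAM and 5 of 7 in BAM+ASC bladders. The fibril genes that were called lie on the lower side. Genes with saturated arrays are counted in the shares.

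Cell type markers moved over the same step from 30 to 90 days. In that step 35.2% of all probes were called higher and 9.49% lower in BAM bladders. In BAM+ASC bladders these shares were 17.8% and 10.3%. Of 9 smooth muscle markers 6 were higher in BAM and 8 in BAM+ASC bladders and 0 were lower, but 8 of the 9 in BAM and 4 in BAM+ASC bladders had a saturated array among those compared. The mean level of that list ranged over 2.44 to 3.25 at 30 days and 2.84 to 4.53 at 90 days in BAM bladders. With ASCs it ranged over 2.01 to 3.11 and then 3.71 to 4.57, without overlap. Of 12 leukocyte markers 8 and 6 were lower and 0 higher, with Itgb2 and Itgam among those of BAM bladders. Their mean level ranged over 1.19 to 1.85 at 30 days and -2.25 to 1.39 at 90 days in BAM bladders, and over 0.21 to 1.32 and then -3.22 to 0.27 with ASCs. Of 12 fibroblast markers 3 were higher and 3 lower in BAM bladders and 1 was higher and 3 lower in BAM+ASC bladders, Vim falling by 1.19 in the former and Col15a1 by 0.85 in the latter. The part of these changes in the rise of Prelp, Ogn and Omd with both grafts, and of Aspn and Dcn in BAM+ASC bladders, was not tested.

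Other cell types changed less evenly. From 30 to 90 days 35.2% of all probes were called higher and 9.49% lower in BAM bladders. In BAM+ASC bladders these shares were 17.8% and 10.3%. From 7 to 30 days 4.19% of all probes were called lower in BAM and 1.39% in BAM+ASC bladders. Of 8 endothelial markers 6 were lower from 7 to 30 days in BAM and 2 in BAM+ASC bladders. Of 7 measured skeletal muscle markers 5 were called higher from 30 to 90 days in BAM bladders, the top 3 of them, Myh1, Myh2 and Myh4, being well above background on 0 of 8 arrays of 90 days. Cartilage and bone genes, with which Omd and Aspn are often listed, had 4 of 8 called higher and 1 lower from 30 to 90 days in BAM bladders. Among the higher ones, Ibsp and Bglap were well above background on 1 and 3 of 8 arrays at 90 days and 0 and 2 of 8 at 30 days, and the lower one, Comp, was well above background on 8 of 8 BAM arrays at 30 days and 0 of 8 at 90 days. Of 7 adipocyte markers 1 was higher and 1 lower from 30 to 90 days in BAM bladders and 2 were lower in BAM+ASC bladders, among them Fabp4, by -1.29 and -1.06. Of 2 mesothelial markers Msln fell from 7 to 30 days by 1.16 in BAM and 1.12 in BAM+ASC bladders.

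Over the 64 arrays, which include the differences between groups, Prelp, Ogn, Omd, Dcn and Aspn were positively correlated with one another (Pearson r from 0.47 to 0.85), and Lum correlated negatively with each of these 5 (from -0.74 to -0.21). After the group means were subtracted, the 5 stayed on the positive side at 0.10 to 0.63, and Lum too was on the positive side with each of them, at 0.09 to 0.42. The highest values within groups were 0.63 for Ogn with Omd, 0.61 for Ogn with Aspn and for Dcn with Prelp, and 0.60 for Fmod with Aspn. All values of Dcn here include its 12 saturated arrays, whose levels are capped. Of the 3 pairs of direct neighbors other than Ogn and Omd, Omd with Aspn had 0.30, Dcn with Lum 0.19 and Prelp with Fmod 0.35. Members of an array share its RNA, its scaling and its slide, and these values are a description.

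**Figure D5:**
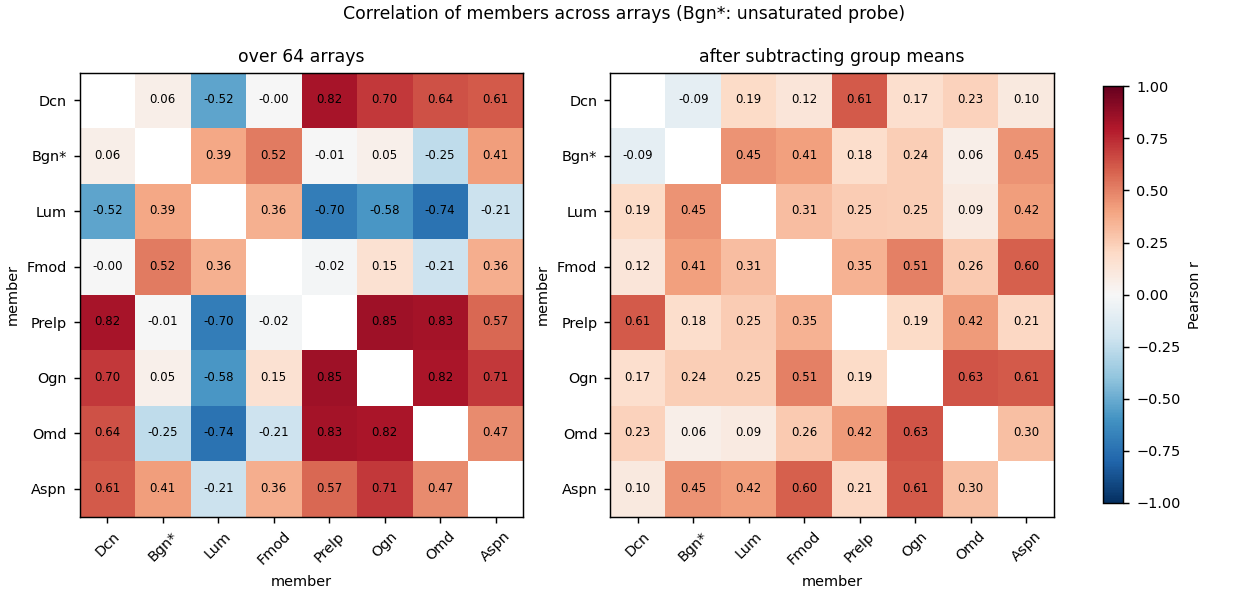
Pearson r of each pair of members over 64 arrays (left) and after the mean of each group was subtracted (right), with both axes listing the members and Bgn taken from its dimmer probe. Negative values of Lum on the left, down to -0.74 with Omd, are positive on the right. Dcn includes 12 saturated arrays.

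The genes with the most similar pattern were taken from 4853 genes that were well above background and unsaturated on all arrays, by Pearson r over the 64 arrays, which share groups and scaling. Prelp was most like Sptan1 (r = 0.96), Ecm1, a matrix glycoprotein (0.94), and Fxyd1, a regulator of the sodium pump (0.93), and within groups these had 0.64, 0.56 and 0.67. Omd was closest to Nr3c2, the mineralocorticoid receptor, Igfbp6 and Macrod1 (0.93, 0.92 and 0.92, within groups 0.59, 0.59 and 0.57). Ogn stood nearest to Gsta1 and Gsta3, glutathione transferases, and Sqstm1 (0.89, 0.88 and 0.88, within groups 0.71, 0.68 and 0.56). Lum had Sec11a, a subunit of the signal peptidase, Fndc3b and Tceal8 (0.90 each, within groups 0.70, 0.62 and 0.64). For Fmod, Col16a1, a fibril-associated collagen, led with 0.75 and kept 0.72 within groups, followed by Nfatc4 and Fkbp9, a chaperone of the endoplasmic reticulum (0.74 and 0.73, within groups 0.65 and 0.67). Aspn was most like Dkk3, Uaca and Wls (0.77, 0.75 and 0.75, within groups 0.59, 0.47 and 0.48). Dcn, with 12 saturated arrays among the 64, was most like Tgoln2, Synj2bp and Smc3 (0.88, 0.87 and 0.87), which had 0.37, 0.41 and 0.19 within groups. The dimmer probe of Bgn was most like Maged2, Csrp2 and Thbs2 (0.75, 0.70 and 0.70, within groups 0.53, 0.49 and 0.44).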

How the data were processed

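RNA of 64 reconstructed bladder walls was measured on 1-color Agilent arrays, 8 per group. For each array a scanner file of Feature Extraction 12.0.1.1 was deposited. Its processed signal, a background-corrected intensity on a linear scale, and its other columns, flags for saturation, outliers and spots above background, were made by the authors and used here. The intensity values in the authors' series matrix, with 3 of 64 columns shifted and 1 partly empty, served as an alternative only. Normalization between arrays, log2 and the 75th percentile were computed here. Control spots and outlier spots were left out and spots of a probe averaged. Where at least 0.5 of a probe's spots carried a flag, the probe did. RefSeq accessions were matched to symbols (18758 probes, 15715 genes), and a gene was read by its brightest probe over all arrays.

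The 8 group means were modelled in R 4.3.3 (limma 3.58.1), with 13 comparisons: 4 between grafts, 6 between consecutive days and 3 of graft differences. The p-values then rest on the spread within groups, pooled over the 8 groups and moderated by limma across probes. Differences between slides are not part of that spread, and 8 arrays per group limit precision. The labels call the arrays of a group biological replicates. On simulated data with 200 changed probes in the comparison at 7 days over 30367 probes, 49% of probes changed by 1 and 83% of those changed by 2 on the log2 scale were recovered, with 4 false calls. The rest was done in Python 3.11.15 (pandas 2.3.3, numpy 2.4.6, matplotlib 3.10.9). Same-numbered replicates of the groups did not deviate together (median correlation by number -0.06 to 0.10). The replicate number was therefore not used as a pairing.

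The members, the 14 other gene lists and the tests were chosen with earlier results of these data known. Members were all named; of a list at most the 3 genes with the largest called change per comparison were, and the 3 genes most similar to each member. Of the list genes, 21 had no named probe. Alternatives were normexp background correction, quantile normalization, the percentile over detected probes, dim probes left out, series matrix values, separate fits, outlier spots kept, the replicate block, the methods' analysis of variance, an adjusted p below 0.05 with no fold threshold, the mean of all probes and each array left out in turn. Bgn by its dimmer probe, saturated probes left out and list counts without saturated genes were chosen after seeing the data. The scanner files name an older rat build, so the coordinates given for upstream sequence are those of the RefSeq table only. Real-time PCR and histology were not analysed here.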

Additional observations from a re-analysis of the deposited data

Results flagged for a closer look

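In 11 of 72 sets of 8 arrays of a group, 1 array stood apart from the other 7 by Dixon's test, which chance gives in about 1 of 20 sets. Aspn was at -3.32 on BAM array 2 of 7 days, with the others between -1.99 and -0.91, and Ogn at -0.53 on the same array, with the others up to 2.26. Aspn was at 0.36 on BAM+ASC array 4 of 90 days, above the others (-1.32 to -0.82). Dcn at 4.55 (others 5.44 to 5.67) and Ogn at 1.70 (others 2.71 to 3.37) were both lowest on BAM+ASC array 5 of 180 days. Ogn at 1.98 (others 2.97 to 3.51) and Omd at -2.28 (others -1.29 to -0.62) were both lowest on BAM array 3 of 180 days. Lum was highest, at 2.95, on BAM+ASC array 3 of 7 days (others 2.12 to 2.27). Prelp was highest, at 2.94, on BAM array 5 of 90 days (others up to 2.08). The saturated Bgn probe was highest at 5.88 on BAM array 7 of 30 days and at 6.02 on BAM array 8 of 90 days. These arrays had the lowest 75th percentile of their groups, 1009 and 959.4.

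The difference between grafts itself changed between days in 5 tests. It changed by 2.56 for Fmod from 7 to 30 days. From 30 to 90 days it changed by 0.75 for Dcn and 1.11 for Bgn, and from 90 to 180 days by -0.81 and -0.82, all 4 with saturated arrays, so that these are not measured sizes. With its dimmer probe, which had no saturated array, Bgn gave 0.16 and -0.03.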

How the results depend on the processing

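Of 26 called changes, all 26 stayed called with dim probes left out, the replicate block, the methods' analysis of variance and outlier spots kept. Leaving out dim probes reuses the p-values of the main fit, adjusted over fewer probes. The analysis of variance is the main fit without moderation, so both lie close to it and check little. All 26 also stayed called with series matrix values, which repeat the scanner values apart from the shifted and partly empty columns. An adjusted p below 0.05 with no fold threshold is a looser cut on the same fit. It could not lose a call and is no check of the 26. With normexp 23, with quantile normalization 20, with the percentile over detected probes 25, with separate fits 19, with the mean of all probes 22 and with the dimmer Bgn probe 21 stayed called. With saturated probes left out 17 could be tested and all 17 stayed called. The counts of members called moved as follows, and the cause was not tested. Between grafts at 7 days (2 called) the count was 1 with normexp and with the percentile over detected probes, 0 in the separate fit, and 1 to 2 with an array left out. Between grafts at 90 days (2) it was 1 with quantile normalization, the mean of probes or the dimmer Bgn probe, 0 without saturated probes, and 3, with Aspn, at an adjusted p below 0.05 or without BAM array 5 of 90 days. From 90 to 180 days in BAM bladders (2) it was 1 with quantile normalization, the separate fit, the mean of probes or the dimmer Bgn probe and 0 without saturated probes. For the change of graft differences, the count from 7 to 30 days (1) was 0 in the separate fit and 0 to 1 with an array left out. From 30 to 90 days (2) it was 1 with normexp, quantile normalization or the dimmer Bgn probe, 0 without saturated probes and 1 to 2 with an array left out, the lower count without BAM array 4 of 30 days. From 90 to 180 days (2) it was 1 with quantile normalization, the mean of probes or the dimmer Bgn probe and 0 in the separate fit or without saturated probes. Other counts went up. At an adjusted p below 0.05 it was 3 between grafts at 7 days, 4 with ASCs from 7 to 30 days (3 called), and 5 from 30 to 90 (4) and 3 from 90 to 180 days in BAM bladders. It was 4 with the dimmer Bgn probe from 7 to 30 days (3) and 5 with quantile normalization from 30 to 90 days in BAM bladders.

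Signs turned as follows. At 7 days quantile normalization gave 0.0069 for Dcn and 0.019 for Lum, and the percentile over detected probes 0.017 for Aspn. At 30 days quantile normalization gave 0.026 for Ogn and -0.012 for Aspn, and the percentile over detected probes 0.035 for Ogn. Among called changes, both with saturated arrays, the change of the graft difference of Dcn from 30 to 90 days (0.75) became -0.034 with quantile normalization, and Bgn from 30 to 90 days in BAM bladders (-0.79) became 0.036 with its dimmer probe. With each of 64 arrays left out, 0 called values changed sign, and 14 of 28 uncalled graft differences did. Saturation limits Dcn and Bgn. Low signal limits Omd most at 7 days, where its means were lowest (-3.63 with ASCs and -4.49 in BAM bladders). The probes of Omd and Aspn were each well above background on 63 of 64 arrays, all but a BAM array of 90 days.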
